A study of Mus musculus with 43 samples.

Results

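This account follows 39 interferon response genes through the 4 purified glial cell types of the mouse cerebral cortex. The animals either had or lacked mature T and B cells. The genes were chosen by symbol. They comprise both subunits of the type I interferon receptor, 4 transcription factors of the pathway, and genes that interferon is known to induce. All 39 had a row in each of the 43 count files, which list 55416 genes. Oligodendrocytes, oligodendrocyte precursor cells (OPCs), astrocytes and microglia were purified by immunopanning from the cortex of 3-month-old C57BL/6J-crossed mice, and each library held the RNA of 1 cell type from 1 mouse. The 12 mice formed 6 littermate pairs of a Rag2-/- animal and an immunocompetent control, which was Rag2+/- in pairs 1, 2, 3 and 5 and Rag2+/+ in pairs 4 and 6. Microglia and astrocytes had 6 libraries of each genotype, OPCs had 6 control and 5 Rag2-/- libraries, and oligodendrocytes had 4 of each. Pairs 2 and 5 were female, as was the Rag2-/- mouse of pair 6, and the other mice were male. Rag2 is one of the recombinases that assemble antigen receptor genes. The deletion was constitutive, so the glia of these mice carried it too, and mature T and B cells had been missing throughout life.

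Type I interferons bind the receptor formed by Ifnar1 and Ifnar2, which activates kinases that phosphorylate Stat2. A complex of Stat2 and Irf9 then binds the interferon-stimulated response element (ISRE) in front of target genes, while Irf1 and Irf7 act on closely related sites. The products block viral replication, sense foreign nucleic acid or damp the response, and glia of the healthy brain are known to hold a low tonic level of them.

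The letters of the ISRE were looked for in the 250 bases before the annotated start of each gene, to show which members carry them close to the start. The motif, 2 copies of GAAA with any 2 bases between them, was searched on both strands. It was present in 15 of the 39 members (38.5%) and in 717 of 21627 windows of all protein-coding genes (3.32%). The stretches below are read on the gene's own strand in GRCm39, with the ISRE letters in capitals (2 copies of GAAA, or of TTTC on the other strand), and were chosen from members whose levels are described later. Isg15 lies at chr4:156285312-156285373, Ifit1 at chr19:34618165-34618233, Ifit3 at chr19:34560753-34560836, Ifit3b at chr19:34585149-34585232, Bst2 at chr8:71990211-71990266, Irgm1 at chr11:48762248-48762297, Stat2 at chr10:128106125-128106174 and Zbp1 at chr2:173060732-173060835.
Isg15: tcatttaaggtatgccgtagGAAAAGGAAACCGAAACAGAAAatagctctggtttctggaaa
Ifit1: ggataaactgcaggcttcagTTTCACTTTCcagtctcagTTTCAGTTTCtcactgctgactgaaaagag
Ifit3: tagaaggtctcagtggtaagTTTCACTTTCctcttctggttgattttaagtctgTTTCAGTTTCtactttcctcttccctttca
Ifit3b: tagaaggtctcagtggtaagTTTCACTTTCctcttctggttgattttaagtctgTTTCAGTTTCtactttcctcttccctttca
Bst2: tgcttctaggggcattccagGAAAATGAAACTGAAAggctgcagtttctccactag
Irgm1: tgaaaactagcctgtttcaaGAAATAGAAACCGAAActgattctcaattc
Stat2: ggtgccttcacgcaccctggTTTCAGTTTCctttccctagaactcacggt
Zbp1: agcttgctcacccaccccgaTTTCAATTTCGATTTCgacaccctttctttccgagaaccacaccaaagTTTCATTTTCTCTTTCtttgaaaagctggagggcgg

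The 84 bases printed for Ifit3 and for its neighbour Ifit3b were identical. Isg15 held 3 overlapping matches and Zbp1 held 4, while no match was found in the windows of Ifnar1, Ifnar2, Irf1, Irf7 or Irf9. By role, the motif was present in 3 of 4 Ifit genes, in both genes of the Isg15 system, in 2 of 7 interferon-inducible GTPases, in 1 of 3 Oas genes and in neither receptor gene.

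The libraries held 6499417 to 23118497 counts on genes, with a median of 10447042. Of these, 6.76% to 60.1% fell on mitochondrial genes, with the lowest shares in microglia and the highest in oligodendrocytes. Rag2 had 6 counts in 3 of the 22 control libraries and 0 counts in the 21 Rag2-/- libraries, so its level was too low in these cells to check the labels. Summed markers of each purified type were highest in its own libraries, but some were also plentiful elsewhere. The oligodendrocyte markers had a median sum of 4719 CPM in control astrocytes, against 19944 CPM in control oligodendrocytes. The astrocyte markers had a median sum of 3016 CPM in control OPCs, against 17965 CPM in control astrocytes. The part of such RNA in the later contrasts among these cell types was not tested. The 9 microglia markers summed to 10827 to 13138 CPM (counts scaled to the library's total) in microglia, 82 to 344 CPM in astrocytes, 253 to 1255 CPM in OPCs and 172 to 952 CPM in oligodendrocytes. Each cell type was sequenced on a lane of its own, and differences between cell types cannot be told apart from those between lanes.

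The first question was where the genes are expressed in immunocompetent animals. Microglia had the highest mean CPM for 28 of the 39 members in control libraries, followed by OPCs for 5, astrocytes for 3 and oligodendrocytes for 3. For 21 members every control microglia library lay above every control library of the other cell types, as did 8.6% of the genes with a count in the control libraries. Over both genotypes this held for 19 members and 6.37% of genes. A mean of 1 CPM or more was reached by 36 members in microglia, 30 in OPCs, 27 in astrocytes and 21 in oligodendrocytes, and by 27.8%, 30.3%, 27.6% and 25.8% of all genes. Together the members summed to 1638 ± 140 CPM in control microglia (SD, n = 6), 362 ± 77.6 CPM in OPCs (n = 6), 210 ± 18.2 CPM in astrocytes (n = 6) and 159 ± 56.2 CPM in oligodendrocytes (n = 4). Ly6e alone had 496 to 731 CPM in the control microglia libraries. Library totals include mitochondrial counts, over both genotypes 6.76% to 11.7% in microglia and 45.8% to 60.1% in oligodendrocytes. The CPM of other genes are therefore scaled down more in oligodendrocytes.

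**Figure D1:**
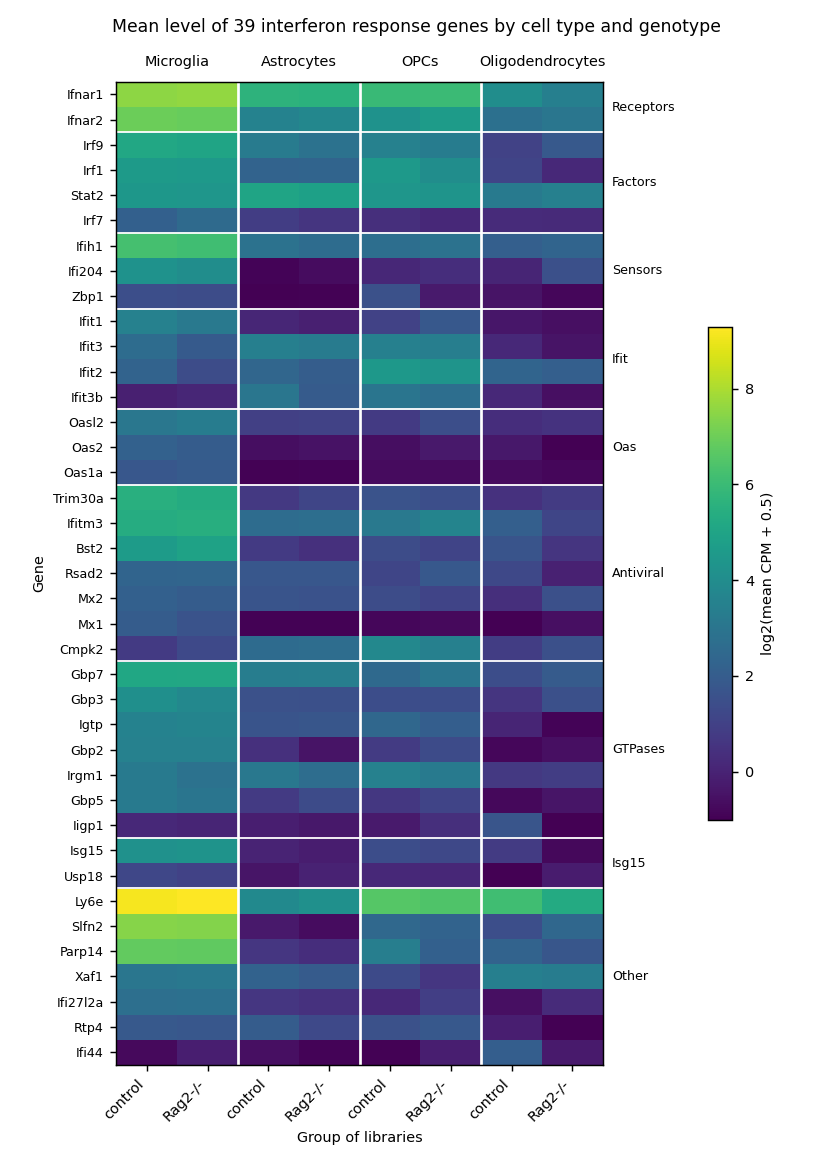
Mean level of each of the 39 members, as log2(mean CPM + 0.5), in the 8 groups of libraries (columns) with genes grouped by role (rows). The microglia columns are brightest for most rows, while Cmpk2, Ifit2 and Ifit3b are brighter in OPC columns.

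The cell types were compared in the control libraries with edgeR's quasi-likelihood test, with the mouse as a term and p-values adjusted over 19368 genes; 38 members could be tested. Against astrocytes, 26 members were higher in microglia and 3 lower, where 29.4% and 30.8% of all genes were (60.1% in either direction). Against OPCs, 27 were higher and 3 lower (28.1% and 31.8% of all genes, 59.9% in either direction), and against oligodendrocytes 29 were higher and 1 lower (28.7% and 27.7%, 56.5% in either direction). The median member was higher in microglia by 2.64, 2.7001 and 3.17 on the log2 scale against astrocytes, OPCs and oligodendrocytes, while the median of all genes lay at -0.05, -0.08 and 0.15. In bulk RNA, fewer cells of a type in a library and less RNA per cell cannot be told apart.

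A set of 24 members was called higher in microglia than in all 3 other cell types, as were 19% of the 19368 genes tested. It held both receptor genes, all 3 Oas genes, both genes of the Isg15 system, 5 of 7 GTPases, 4 of 7 antiviral restriction factors, 2 of 3 nucleic acid sensors, 1 of 4 transcription factors and 1 of 4 Ifit genes. When the same contrasts were fitted in the Rag2-/- libraries, 23 members and 18.3% of genes met this criterion, and 21 members were shared. Gbp5, Ifit1 and Usp18 met it in controls alone and Irf7 and Zbp1 in Rag2-/- libraries alone. Leaving out 1 control mouse at a time gave 20 to 24 members and 16.3% to 17.7% of genes. Without the control of pair 5 the set held 20 members and 17.2% of genes: Oas1a, Oas2 and Oasl2 were no longer called against oligodendrocytes, nor Usp18 against OPCs, so that none of the Oas genes remained. Without the control of pair 6 it also held 20 members, and 17.3% of genes, with Isg15, Oas1a, Oasl2 and Usp18 lost. Without that of pair 1 it held 21 members, and 16.8% of genes, with Isg15, Oasl2 and Usp18 lost. Oasl2 was lost without the control of pair 2 as well, and Usp18 without that of pair 3.

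The receptor genes were among the most abundant members. Ifnar1 (chr16:91281942-91305789, + strand), the first subunit, ranged in control libraries from 148 to 222 CPM in microglia (median 187), from 43.6 to 58.1 CPM in astrocytes (median 49.3) and from 50.03 to 76.1 CPM in OPCs (median 62.9). In oligodendrocytes it had 17.9, 23.9, 13.3 and 9.53 CPM in the controls of pairs 1, 3, 5 and 6. Microglia therefore lay above all others without overlap, and astrocytes and OPCs overlapped. The fitted difference was 1.67 (SE 0.14, edgeR adjusted p = 3.38e-09) from astrocytes, 1.79 (SE 0.14, adjusted p = 1.39e-09) from OPCs and 2.73 (SE 0.18, adjusted p = 1.13e-10) from oligodendrocytes on the log2 scale. The difference of astrocytes from OPCs did not pass (0.13, 95% interval -0.17 to 0.42, adjusted p = 0.549). Ifnar2 (chr16:91169618-91202723, + strand), the second subunit, ranged from 112 to 159 CPM in microglia (median 117), from 14.6 to 22.4 CPM in OPCs (median 19.5) and from 7.60 to 14.7 CPM in astrocytes (median 11.2), and had 3.08, 13.1, 3.66 and 6.02 CPM in oligodendrocytes. It was higher in microglia than in each other type by 2.98 to 3.58 on the log2 scale, and no difference among the other 3 types passed the threshold (adjusted p = 0.0931 to 0.393).

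Of the 4 transcription factors, only Irf9 was higher in microglia than in all 3 other types. This factor, the DNA-binding partner of Stat2, ranged in controls from 23.5 to 51.8 CPM in microglia (median 34.6), from 4.37 to 24.6 in OPCs (median 9.67) and from 5.51 to 12.5 in astrocytes (median 8.86), with 0.632, 4.61, 0.777 and 0.251 CPM in oligodendrocytes. Every pairwise difference passed the threshold except that of astrocytes and OPCs (edgeR adjusted p = 0.615), and that of OPCs and oligodendrocytes was lost without the control mouse of pair 5. Stat2 itself had its highest mean in astrocytes, where it ranged from 27.9 to 34.4 CPM (median 31.7), against 13.2 to 29.2 (median 21.7) in microglia, 12.2 to 35.2 (median 19.9) in OPCs and 11.4, 6.03, 7.66 and 11.2 in oligodendrocytes. It was lower in microglia than in astrocytes by 0.75 on the log2 scale (SE 0.25, adjusted p = 0.0122). This call was lost when the control of pair 1 was left out. Irf1, which also responds to type II interferon, ranged from 18.8 to 31.9 CPM in microglia (median 22.01) and from 14.2 to 38.7 CPM in OPCs (median 18.8), with overlapping libraries and a difference of 0.32 (95% interval -0.23 to 0.87, edgeR adjusted p = 0.302). It was lower than in either of these in astrocytes (2.64 to 6.81 CPM, median 4.25) and oligodendrocytes (0.712, 1.51, 2.77 and 1.59 CPM). Irf7, which amplifies interferon production, was low throughout, from 2.05 to 6.62 CPM in microglia (median 3.68) and from 0 to 2.19 CPM in the other types, and passed the test only between microglia and OPCs (2.50, SE 0.85, adjusted p = 0.0159).

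Per kilobase of exon, the leading member was Ly6e (chr15:74826860-74847454, + strand), a membrane protein anchored by glycolipid, in 3 of the 4 cell types. Its mean in controls was 126 CPM per kb in microglia, 20.6 in OPCs and 15.3 in oligodendrocytes. By library it ranged from 496 to 731 CPM in microglia (median 544), from 67.7 to 128 CPM in OPCs (median 91.7) and from 6.18 to 34.7 CPM in astrocytes (median 11.3), with 28.9, 72.5, 138 and 39.5 CPM in oligodendrocytes. The microglia libraries stood apart from all others, and astrocytes were lower than OPCs (-2.34, SE 0.35, edgeR adjusted p = 2.85e-05) and than oligodendrocytes (-2.87, SE 0.39, adjusted p = 1.09e-05). Slfn2, a cell-growth regulator of immune cells, was second in microglia with 86.6 CPM per kb. It ranged there from 147 to 195 CPM (median 174), against at most 1.102 CPM in control astrocytes and 10.7 CPM in control OPCs. Ifnar2 followed with 33.7 CPM per kb. In OPCs Ifnar1 (7.69 CPM per kb) and Ifitm3 (6.58), which blocks viral entry, followed Ly6e. Ifitm3 ranged from 4.29 to 11.8 CPM in control OPCs (median 9.19), from 2.74 to 10.3 CPM in astrocytes (median 5.87) and from 21.9 to 59.3 CPM in microglia (median 43.1), whose libraries stood above both. In astrocytes Ifnar1 (6.20), Stat2 (4.97) and Ifitm3 (4.52) led. In oligodendrocytes Ifitm3 (2.99) and Bst2 (2.22), the virus-tethering factor tetherin, followed Ly6e, but Bst2 stood at 1.34, 0.188, 8.99 and 0.251 CPM in the controls of pairs 1, 3, 5 and 6, so that 1 library set its mean.

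A few members were lower in microglia than in other glia. Ifit3b (chr19:34585328-34590801, + strand), an RNA-binding effector, was lower than in all 3. It ranged from 0.146 to 0.871 CPM in control microglia (median 0.333), from 1.21 to 13.6 CPM in astrocytes (median 7.58) and from 3.06 to 10.46 CPM in OPCs (median 7.38). The difference was -4.33 (SE 0.58, edgeR adjusted p = 1.81e-06) from astrocytes and -3.97 (SE 0.56, adjusted p = 4.5e-06) from OPCs, with no overlap of libraries. That from oligodendrocytes (-1.56, adjusted p = 0.0425) was not called in the Rag2-/- libraries, where its sign was opposite (0.80), nor with 4 of the control mice left out in turn. Cmpk2, a mitochondrial nucleotide kinase, was lower in microglia (1.18 ± 0.90 CPM) than in OPCs (13.3 ± 3.89 CPM; -3.42, SE 0.57, adjusted p = 3.13e-05) and astrocytes (5.61 ± 1.83 CPM; -2.57, SE 0.56, adjusted p = 0.000504). Ifit2 was lower than in OPCs (4.37 ± 1.18 against 22.1 ± 4.64 CPM; -2.06, SE 0.35, adjusted p = 3.53e-05), while its neighbour Ifit1 was higher in microglia (10.9 ± 5.24 against 1.52 ± 1.53 CPM). Members of 1 cluster on chromosome 19 thus had different leading cell types. Of the 50-base windows of Ifit3 and Ifit3b, 45.9% and 47.0% recur in another gene's transcript, as do 53.0% of those of Oas1a, so that the counts of these genes are uncertain. The same holds where exons overlap another gene, for 44.6% of the exonic bases of Irf1, 26.6% of Rtp4 and 19.96% of Ifnar2.

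The 3 cell types of neural origin differed from each other in fewer members than from microglia, and in fewer of all genes too. Between astrocytes and OPCs 3 members were higher in astrocytes and 7 in OPCs (13.2% and 16.9% of all genes, 30.0% in either direction). The median member differed by -0.05. Between astrocytes and oligodendrocytes 10 were higher in astrocytes and 5 lower (16.2% and 18% of all genes, 34.2% in either direction). Between OPCs and oligodendrocytes 11 were higher in OPCs and 1 lower (13.5% and 10.7%, 24.2% in either direction). The 1 member higher in oligodendrocytes than in both other neural types was Xaf1, which promotes apoptosis, with 11.1, 14.97, 3.33 and 11.6 CPM in oligodendrocytes against 0.957 to 3.81 CPM in OPCs (OPC minus oligodendrocyte -3.38, SE 0.50, edgeR adjusted p = 5.74e-05). Without the control mouse of pair 5, astrocytes and OPCs differed in 7 of 38 members and in 5156 of 19837 genes, with Zbp1, Parp14 and Ifi204 no longer called.

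Because immunopanned libraries can hold RNA of other cells, the level of each member in the other cell types was set beside that of 9 microglia markers, each as a percentage of its mean CPM in control microglia. The markers stood at 0.760% to 2.17% in astrocytes, 4.09% to 6.54% in OPCs and 2.71% to 6.10% in oligodendrocytes. The members had medians of 16.2%, 16.4% and 7.11%, and 33, 33 and 23 of the 39 lay above every marker. In astrocytes the members below every marker were Zbp1, Slfn2, Ifi204, Mx1 and Oas1a, and in OPCs they were Mx1, Slfn2, Ifi204, Oas1a and Oas2. In oligodendrocytes 8 members lay within the marker range and 8 below it. Mx1, a GTPase that blocks influenza and related viruses, had 0 counts in the 4 oligodendrocyte controls, which allows up to 0.237 to 0.333 CPM in a library (3 counts, counting error only). With TMM-scaled CPM the oligodendrocyte median was 13.4%, but the markers there rose too, to 4.84% to 10.9%. With that scaling 24 members lay above every marker in oligodendrocytes.

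**Figure D2:**
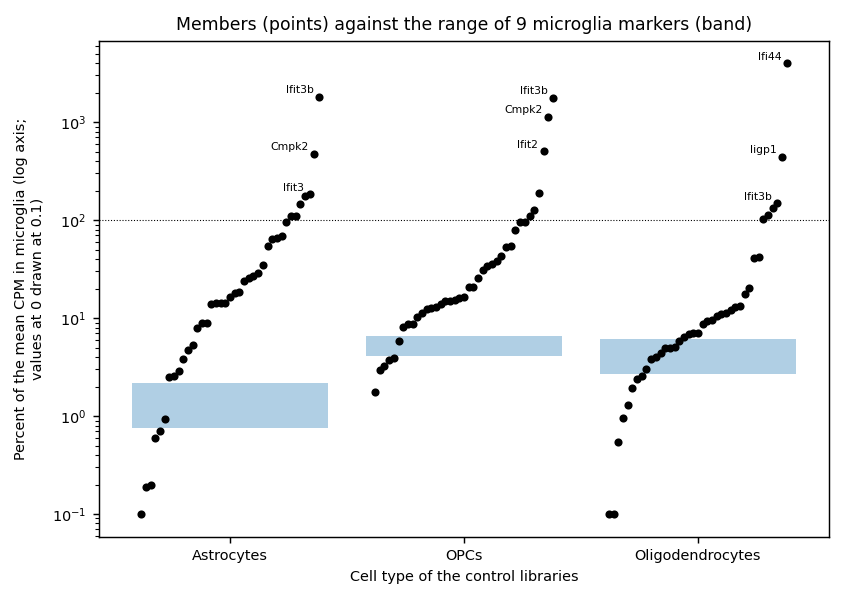
Level of each of the 39 members (points, sorted) in control astrocytes, OPCs and oligodendrocytes as a percentage of its mean CPM in control microglia, on a log axis, with the range of 9 microglia markers as a band. In astrocytes and OPCs 33 members lie above the band, and in oligodendrocytes 23 do. The topmost oligodendrocyte points, Ifi44 and Iigp1, rest on 1 library each.

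The surrounding pathway was read from lists of genes that are no members. Of 13 interferon genes only Ifnb1, the type I ligand interferon beta, could be tested. It had 11.5 ± 4.36 CPM in control microglia, 0.205 ± 0.272 in OPCs and no count in control astrocytes or oligodendrocytes, and was higher in microglia than in each of the 3. Of 13 receptor and signalling genes tested, 11, 11 and 13 were higher in microglia than in astrocytes, OPCs and oligodendrocytes, and none lower. Of 18 genes of nucleic acid sensing, 13, 15 and 15 were higher and 1 lower in each contrast. The lower gene was Rnaseh2b, a subunit of the enzyme that removes RNA from DNA hybrids, against OPCs and oligodendrocytes. Against astrocytes it was Tlr3, the endosomal receptor for double-stranded RNA, with 230 ± 51.9 CPM there and 32.2 ± 3.09 CPM in microglia. Of 42 further interferon-induced genes, 34, 36 and 37 were higher in microglia. Between the genotypes edgeR called 0 of 75 genes of these lists in microglia, 47 in astrocytes, 61 in OPCs and 46 in oligodendrocytes, with 3, 1, 3 and 3 at an unadjusted p under 0.05, and DESeq2 called 0 in each.

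The second question was whether these genes change in Rag2-/- mice, which lack mature T and B cells. No member was called between Rag2-/- and control libraries in any cell type, with a fit of sex and genotype for each cell type by edgeR's quasi-likelihood test. In microglia 36 members were tested, 0 were called and 2 had an unadjusted p under 0.05, where 0.00667% and 2.91% of all genes did. In astrocytes the counts were 0 and 1 of 24 (0.00679% and 2.87% of all genes), in OPCs 0 and 1 of 29 (0.00592% and 4.02%), and in oligodendrocytes 0 and 0 of 18 (0.0% and 3.38%). DESeq2 with the same terms called 0 members in microglia, astrocytes and OPCs and 1, Iigp1, in oligodendrocytes. The members' median difference was -0.05 in microglia, 0.02 in astrocytes, 0.00 in OPCs and 0.30 in oligodendrocytes on the log2 scale, and that of all genes was -0.01, 0.00, -0.01 and 0.00.

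These tests could bound a change more closely in microglia than elsewhere. The 95% interval of the log2 difference lay within 2-fold either way for 27 of 36 members in microglia, 14 of 24 in astrocytes, 11 of 29 in OPCs and 0 of 18 in oligodendrocytes. Its median width on either side was 0.50, 0.79, 0.93 and 2.47 on the log2 scale. For no tested member did the libraries of the genotypes separate without overlap. All genes did so, higher and lower in Rag2-/-, at shares of 0.04% and 0.0733% in microglia, 0.034% and 0.0951% in astrocytes, 0.118% and 0.267% in OPCs, and 0.616% and 1.35% in oligodendrocytes.

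**Figure D3:**
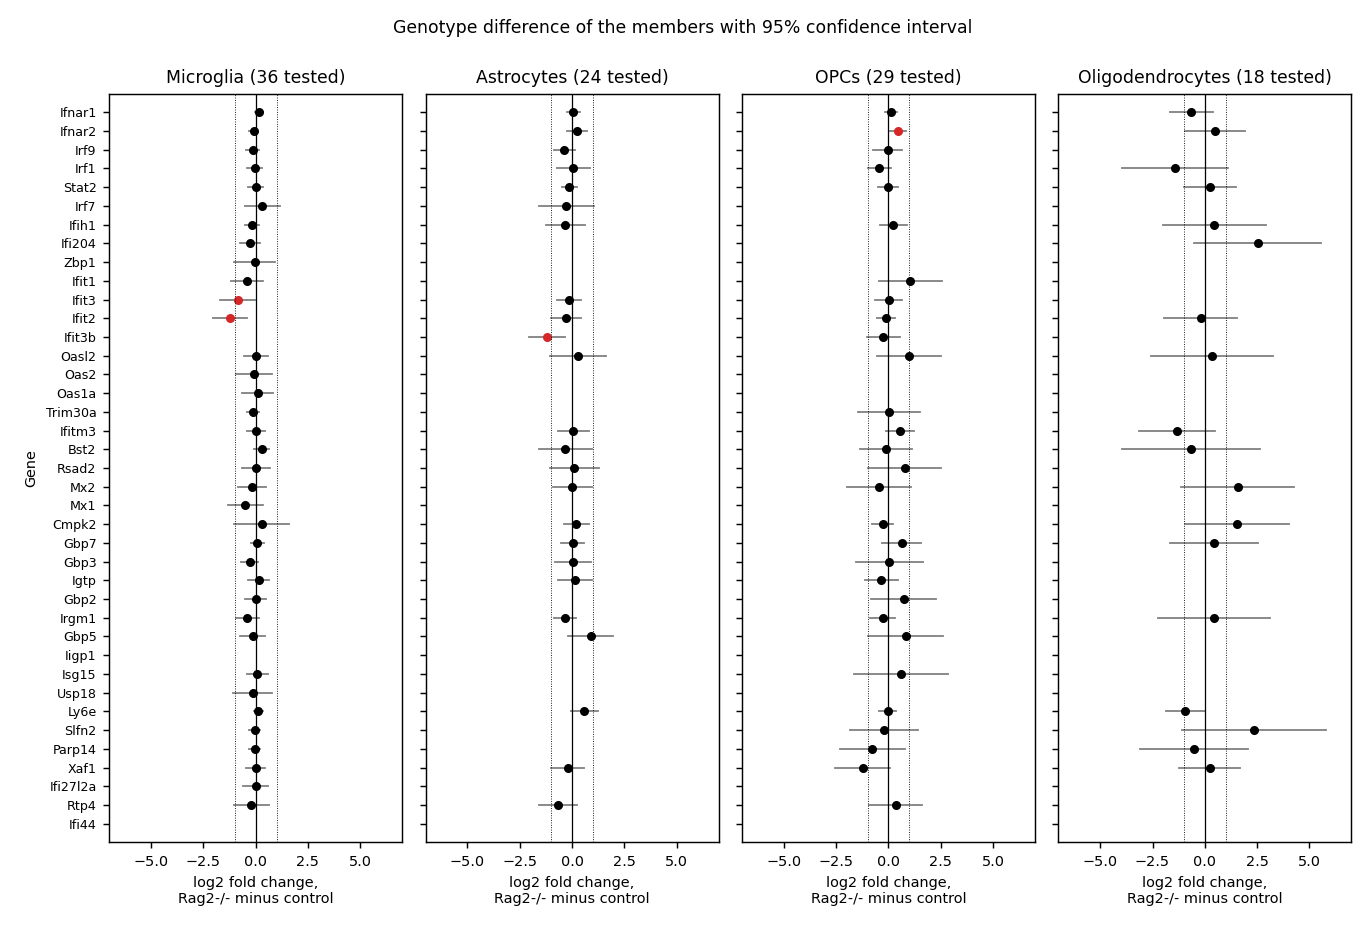
Log2 difference of each tested member between Rag2-/- and control libraries (points) with its 95% confidence interval (lines) in the 4 cell types; red points have an unadjusted p under 0.05 and dotted lines mark a 2-fold difference. The intervals are narrowest in microglia, where 27 of 36 lie within 2-fold, and widest in oligodendrocytes, where none of 18 does.

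In microglia the smallest p belonged to Ifit2 (chr19:34527932-34554524, + strand), which ranged from 2.14 to 5.32 CPM in controls (median 4.72) and from 1.099 to 4.02 CPM in Rag2-/- libraries (median 1.97). The groups overlapped, and the Rag2-/- library was the lower in 6 of 6 pairs. The difference of -1.22 (SE 0.39, 95% interval -2.03 to -0.40) had an edgeR adjusted p of 0.999. Ifit3 ranged from 1.84 to 9.41 CPM in controls (median 6.75) and from 2.04 to 4.65 CPM in Rag2-/- libraries (median 3.12). It was lower in 4 of 6 pairs (-0.86, 95% interval -1.70 to -0.03, edgeR adjusted p = 0.999), and with the littermate pair as a block the difference was -0.46. Bst2 ranged from 16.001 to 33.2 CPM (median 25.3) and from 19.6 to 47.1 CPM (median 28.7), higher in Rag2-/- in 5 of 6 pairs (0.28, 95% interval -0.08 to 0.63, edgeR adjusted p = 0.999).

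None of the receptors and factors passed the test in microglia. Ifnar1 ranged from 185 to 217 CPM in Rag2-/- microglia (median 195) and Ifnar2 from 111 to 122 CPM (median 117). Their differences from controls were 0.15 (95% interval -0.05 to 0.35) and -0.09 (-0.31 to 0.13). Irf1 (18.2 to 27.5 CPM, median 22.9), Irf9 (28.3 to 37.3 CPM, median 30.4) and Stat2 (16.8 to 25.03 CPM, median 20.99) differed by -0.06 (SE 0.17), -0.15 (SE 0.14) and -0.01 (SE 0.17). Irf7 had the widest error of these, with 2.33 to 8.50 CPM (median 5.22) in Rag2-/- libraries and a difference of 0.32 (SE 0.40).

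In OPCs Ifnar2 had the smallest p. It ranged from 14.6 to 22.4 CPM in 6 controls (median 19.5) and stood at 25.5, 25.8, 31.4, 18.6 and 20.9 CPM in the Rag2-/- libraries of pairs 1, 2, 3, 4 and 6. It was higher in 5 of 5 complete pairs, although the groups overlapped (0.45, 95% interval 0.07 to 0.83, edgeR adjusted p = 0.9998). Xaf1 ranged from 0.957 to 3.81 CPM in controls (median 1.53) and stood at 0.464, 1.54, 0.428, 0.385 and 2.47 CPM in Rag2-/- libraries, lower in 5 of 5 pairs (-1.24, 95% interval -2.56 to 0.09). Irf1 stood at 18.2, 13.5, 18.8, 8.47 and 21.8 CPM in Rag2-/- libraries and was lower in 3 of 5 pairs (-0.44, 95% interval -0.98 to 0.10). Summed endothelial markers ranged from 40.3 to 106 CPM in control OPCs (median 68.5) and from 54.4 to 191 CPM in Rag2-/- OPCs (median 116), with all 9 markers detected in both. Summed astrocyte markers ranged from 2745 to 3350 CPM in control OPCs (median 3016) and from 2581 to 7343 CPM in Rag2-/- OPCs (median 3975), again with all 8 detected in both. The median log2 genotype difference in OPCs was 0.69 over the 8 astrocyte markers and 0.76 over the 9 endothelial markers, 6 and 2 of them with an unadjusted p under 0.05 and none called. The part of either cell type in these values was not tested.

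In astrocytes Ifit3b ranged from 1.21 to 13.6 CPM in controls (median 7.58) and from 1.86 to 5.64 CPM in Rag2-/- libraries (median 2.82). It was lower in 5 of 6 pairs (-1.19, 95% interval -2.05 to -0.34, edgeR adjusted p = 0.9998). Ly6e ranged from 6.18 to 34.7 CPM (median 11.3) and from 12.7 to 22.6 CPM (median 16.96), higher in 5 of 6 pairs (0.59, 95% interval -0.07 to 1.24). Gbp5, a GTPase that attacks the vacuoles of intracellular pathogens, ranged from 0.374 to 2.30 CPM (median 1.16) and from 0.838 to 3.43 CPM (median 2.06), higher in 4 of 6 pairs (0.88, 95% interval -0.17 to 1.94). All 3 ranges overlapped between the genotypes.

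In oligodendrocytes Ly6e stood at 28.9, 72.5, 138 and 39.5 CPM in the controls of pairs 1, 3, 5 and 6 and at 24.5, 44.2, 71.1 and 16.4 CPM in their Rag2-/- littermates. It was lower in 4 of 4 pairs, and the pairs differed more than the genotypes did (-0.94, 95% interval -1.88 to 0.01, edgeR adjusted p = 0.998). Ifi204, a DNA sensor, stood at 0.474, 1.601, 0.111 and 0 CPM against 1.94, 6.57, 0 and 0.955 CPM (2.53, 95% interval -0.51 to 5.57). Ifitm3 stood at 3.32, 1.88, 7.21 and 2.93 CPM against 1.67, 1.40, 3.16 and 0.588 CPM, lower in 4 of 4 pairs (-1.31, 95% interval -3.13 to 0.51). Iigp1, a GTPase of the same defence and the member that DESeq2 called, had 11.02 CPM in the control of pair 3 and no count in the other 7 oligodendrocyte libraries, so that 1 library decided the call.

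The receptors and factors outside microglia did not pass the test either. In astrocytes the Rag2-/- libraries ranged from 41.4 to 64.8 CPM of Ifnar1 (median 44.0) and from 8.39 to 20.4 CPM of Ifnar2 (median 12.2), and the log2 differences were 0.05 (SE 0.15) and 0.25 (SE 0.22). For Ifnar1 the Rag2-/- library was the lower in 5 of 6 pairs, and without the Rag2-/- library of pair 1 the difference was -0.14. In the same cells the differences of Irf9, Stat2, Irf1 and Irf7 were -0.36 (SE 0.24), -0.13 (SE 0.17), 0.06 (SE 0.38) and -0.27 (SE 0.62). In OPCs Ifnar1 differed by 0.12 (SE 0.13), Irf9 by -0.05 (SE 0.33) and Stat2 by -0.04 (SE 0.22). In Rag2-/- oligodendrocytes Ifnar1 stood at 10.9, 7.36, 9.02 and 14.03 CPM in pairs 1, 3, 5 and 6, lower than the littermate in 3 of 4 pairs (-0.64, SE 0.47). The factors were scattered there, with 9.57, 0.175, 2.23 and 0.588 CPM of Irf9 and 0.268, 1.05, 0 and 1.25 CPM of Irf1.

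Whether the genotype difference depended on the cell type was tested with an F test over the 3 differences, in a fit of all 43 libraries with the mouse as a term. edgeR called 0 of 39 members, and 3 had an unadjusted p under 0.05, where 0.0234% and 6.7% of 21368 genes did. The 3 were Igtp (adjusted p = 0.340), Rtp4 (adjusted p = 0.461) and Ifi44 (adjusted p = 0.629), which are named here after their values were seen. Igtp, a GTPase of the same family as Irgm1, averaged 0.561 CPM in control and 0.0403 CPM in Rag2-/- oligodendrocytes, 4.84 and 3.77 CPM in OPCs, and 11.2 and 12.0 CPM in microglia. In astrocytes it ranged from 0.748 to 3.63 CPM in controls and from 2.24 to 3.82 CPM in Rag2-/- libraries. The oligodendrocyte means rest on 10, 11, 3 and 1 counts in controls and 0, 1, 0 and 1 in Rag2-/- libraries. Igtp was too low there for the genotype test of that cell type.

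The mean level of the 39 members was then followed library by library, as the mean of log2(CPM + 0.5) after subtraction of each member's mean in that cell type. The Rag2-/- mean minus the control mean was -0.025 in microglia, -0.113 in astrocytes, 0.070 in OPCs and -0.133 in oligodendrocytes, against within-genotype SDs of 0.225, 0.182, 0.296 and 0.364. The genotypes thus differed by less than the spread between mice in each cell type. In microglia the members' level was lowest in pairs 3 and 4, at -0.297 to -0.168, and highest in pair 5, at 0.332 in the control and 0.377 in the Rag2-/- mouse. In oligodendrocytes it was highest in pair 3 (0.473 and 0.478). Pairs that were high in 1 cell type were not always high in another: pair 3 was the highest in oligodendrocytes and among the lowest in microglia.

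**Figure D4:**
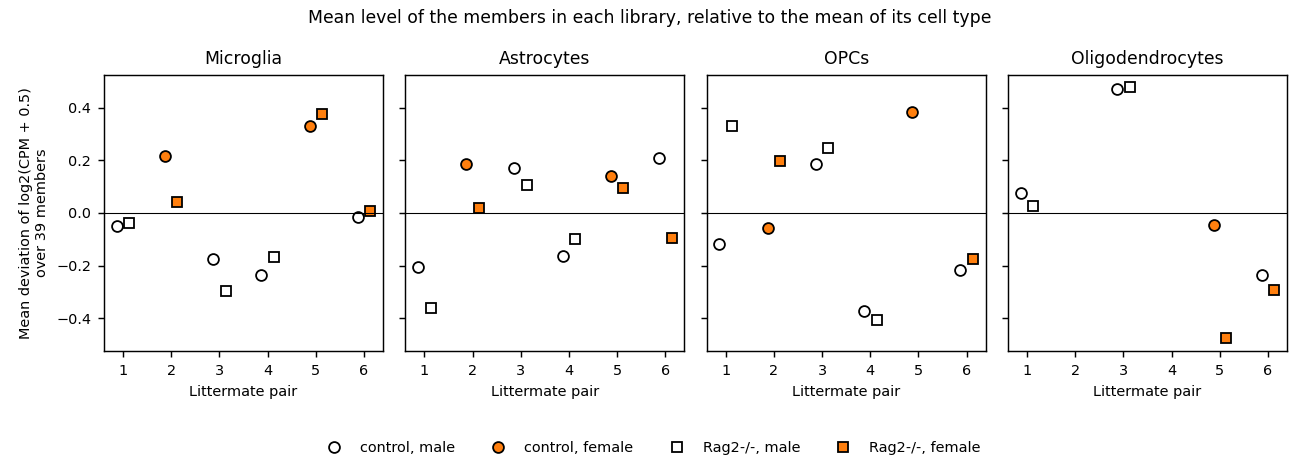
Mean deviation of log2(CPM + 0.5) over the 39 members in each library, by littermate pair (x axis), for the 4 cell types; circles are controls, squares Rag2-/- mice, and orange symbols females. In microglia pair 5 is highest at 0.332 and 0.377, and pairs 3 and 4 are lowest at -0.297 to -0.168.

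The design also held both sexes, and here the microglia members leaned to 1 side. edgeR called 0 of 36 members between female and male microglia, where 0.0467% of genes were called, but 9 had an unadjusted p under 0.05 against 3.92% of all genes, and DESeq2 called 1. Of the 36, 30 were higher in females, where 50.4% of all genes were, with a median log2 difference of 0.28 against 0.00 for all genes. The mean level over members was 0.196 ± 0.166 in 5 female and -0.140 ± 0.108 in 7 male microglia libraries. The sexes did not overlap (0.008 to 0.377 and -0.297 to -0.016), but they did with a pseudocount of 2, with TMM-scaled CPM or with members of at least 10 counts on average. Summed markers of border macrophages were 907 and 880 CPM in pair 5 and 447 to 1022 CPM in the other microglia libraries, and those of monocytes and neutrophils were 92.8 CPM in the Rag2-/- mouse of pair 5 against at most 32.0 CPM elsewhere. Their part in the members' levels was not tested. Without both libraries of pair 5, 28 of 35 members were higher in females (median 0.21). In that fit 3 members had an unadjusted p under 0.05, as did 524 of 15051 genes. The female mean level was then 0.0896 ± 0.113 (n = 3). Sex and littermate pair largely coincide and cannot be told apart. With the pair as a block, only pair 6 compares the sexes. Of the 36 members 13 were then higher in females, and the median difference was -0.18 against -0.01 for all genes. In this fit 3 members had an unadjusted p under 0.05, as did 663 of 15003 genes. Within pair 6, 16 of 36 members were higher in the female Rag2-/- than in the male control library, where 48.0% of all genes were.

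Oasl2 (chr5:115034997-115050295, + strand), an oligoadenylate synthetase-like antiviral protein that is named here after its values were seen, had the smallest p. It stood in females at 14.04 and 12.2 CPM in the controls of pairs 2 and 5 and at 5.27, 19.5 and 16.9 CPM in the Rag2-/- mice of pairs 2, 5 and 6. In males it ranged from 4.58 to 6.46 CPM. The Rag2-/- female of pair 2 thus lay within the male range and the other 4 above it (1.39, 95% interval 0.83 to 1.95, edgeR adjusted p = 0.0689). Oasl2 was called by DESeq2 (adjusted p = 0.00139) and by edgeR without the filter on low counts (adjusted p = 0.000398). edgeR also called it without the control of pair 1 (adjusted p = 0.0233) and without the Rag2-/- mouse of pair 2 (adjusted p = 0.00288). The latter fit leaves out the female that lay within the male range. It was not called in the main fit, with the size factors of DESeq2 in edgeR or with the pair as a block. Nor was it called without both libraries of pair 5 or with any other single library left out. The other 8 members with an unadjusted p under 0.05, all higher in females, were Ifi27l2a, Oas2, Xaf1, Parp14, Zbp1, Oas1a, Ifitm3 and Bst2, with log2 differences of 0.36 to 1.16. Oas1a was the 1 member whose sexes did not overlap (0.923 to 3.43 CPM in males and 3.71 to 5.49 CPM in females), where 0.1% of all genes were higher in females without overlap.

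In the other cell types edgeR called 0 of 24 members between the sexes in astrocytes, 0 of 29 in OPCs and 0 of 18 in oligodendrocytes, where 0.0407%, 0.0296% and 0.0362% of genes were called, and 2, 0 and 1 had an unadjusted p under 0.05, where 6.73%, 4.3% and 8.23% of all genes did. The sexes overlapped for every member tested, while 0.217%, 0.255% and 1.14% of all genes were higher and 0.102%, 0.332% and 5.75% lower in females without overlap. The medians were 0.14, 0.14 and -0.06 on the log2 scale. DESeq2 called 0 members in astrocytes and OPCs and Iigp1 in oligodendrocytes, again on the 1 library that held its counts.

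One OPC library stood apart. In the OPCs of the control of pair 5, a female whose Rag2-/- littermate has no OPC library, 11 of the 39 members were the highest of all 11 OPC libraries, a place that 17.6% of the genes with a count in OPCs also had there. Other members were low there. Ifit3 (5.33 CPM) and Ifitm3 (4.29 CPM) were the lowest of the 11 libraries, as were 4.59% of genes, and 6 members, Usp18 and Ifi27l2a among them, had no count. The genes named next were singled out after their values were seen. Zbp1, a sensor of Z-form nucleic acid, had 12.7 CPM there and at most 1.46 CPM in the other 10 libraries. Isg15, the ubiquitin-like modifier, had 10.3 CPM against at most 4.41, and Parp14, an ADP-ribosyltransferase, had 37.1 CPM against at most 9.28. The transcription factors were high in the same library, with 24.6 CPM of Irf9 against at most 12.1, 35.2 CPM of Stat2 against at most 25.8 and 38.7 CPM of Irf1 against at most 29.7. Its summed microglia markers were 659 CPM, below the 1238 and 1255 CPM of the OPC libraries of pair 3, in which Zbp1 stood at 0.383 and 0.285 CPM and Isg15 at 0.0957 and 2.00 CPM. Its border macrophage markers were 21.4 CPM, within the 8.57 to 106 CPM of the others. In this library 47.8% of reads fell on no gene, against 39.98% to 42.95% in the other OPC libraries. Mitochondrial genes took 22.4% of its counts on genes, against 24.4% to 36.7% in the others. The part of other cells or of these shares in its values was not tested. Without this library, edgeR called 0 of 30 members between the genotypes in OPCs, 2 had an unadjusted p under 0.05, and the members' median difference was 0.25 in place of 0.00 on the log2 scale. Irf9 and Stat2 then stood higher in Rag2-/- OPCs (0.24 and 0.14) and Irf1 lower (-0.31), none of them called. Pair 5 was also the pair with the highest member level in microglia, but in astrocytes its control stood at 0.139 and in oligodendrocytes at -0.047.

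**Figure D5:**
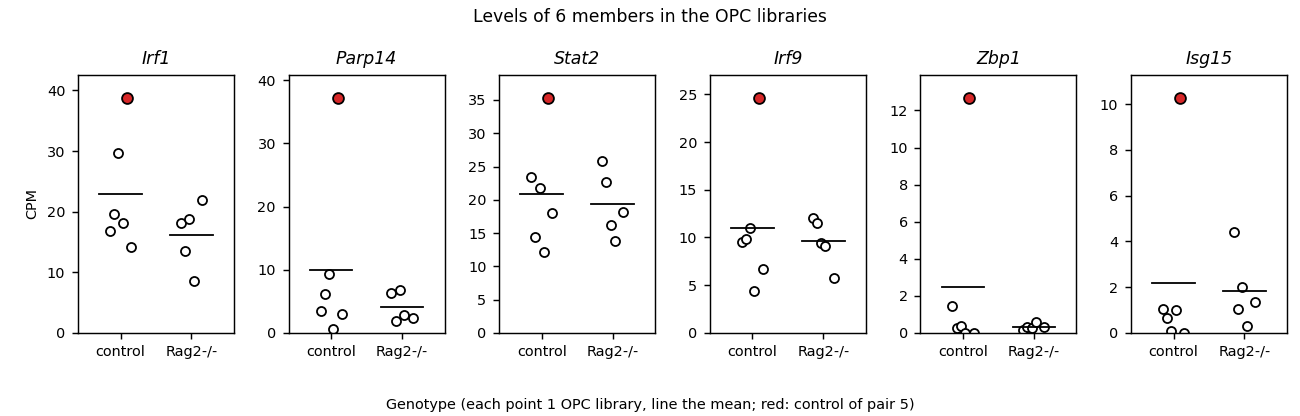
CPM of 6 members in each of the 11 OPC libraries, control and Rag2-/- (x axis), with the group mean as a line and the control of pair 5 in red. The 6 were picked after their values were seen, among the 11 members that are highest in this library. The red point is therefore the highest in all 6 panels, with 12.7 CPM of Zbp1 against at most 1.46 CPM elsewhere. Ifit3 and Ifitm3, not shown, were lowest in this library, and 6 other members had no count there.

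How far the members moved together across libraries is described without a test, since genes of a library share its depth and composition. In microglia the median correlation over 630 pairs of members was 0.19 across 12 libraries, against 0.08 for pairs of all genes, and in OPCs it was 0.21 across 11 libraries against 0.07. In astrocytes both medians were 0.09, and in oligodendrocytes they were 0.13 and 0.10. Within microglia, the members that followed the mean of the others most closely were Zbp1 (r = 0.87), Ifitm3 and Ifi27l2a (0.80 each), Oasl2 (0.78) and Rtp4 (0.77). Both receptor genes did not follow it, with -0.36 for Ifnar1 and -0.08 for Ifnar2, and neither did Stat2 (-0.17), Gbp5 (-0.29) or Igtp (-0.36).

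Among 10090 other genes with at least 5 CPM, the 5 whose level was most like the members' mean across the 12 microglia libraries were Cxcl10 (r = 0.864), Il18bp (0.863), Tlr1 (0.851), Slfn5 (0.845) and Hadhb-ps (0.845). They were picked as the highest of 10090 correlations, and no test was made. Genotype means were taken out first, while sex and littermate pair were not. Cxcl10, a chemokine that attracts T cells, was abundant, from 312 CPM in the Rag2-/- mouse of pair 3 to 717 CPM in the control of pair 2, with 644 and 710 CPM in pair 5. Il18bp, the secreted inhibitor of interleukin-18, ranged from 8.71 to 27.1 CPM, and its highest value came from the Rag2-/- mouse of pair 5.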

How the data were processed

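The deposited files hold raw read counts per gene; per the study's methods the authors amplified the RNA with an Ovation V2 kit, sequenced paired 50-base reads, aligned them to GRCm39 with STAR 2.7.8a and counted with HTSeq, whose overlap mode and strand setting are not given in the sources used here. Groups, pairs and sexes came from the sample labels. The 39 members and the other gene lists were chosen with earlier results of these data known.

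CPM were computed over all gene counts. Tests used edgeR 4.0.16 in R 4.3.3 (quasi-likelihood test, TMM scaling, filterByExpr with a minimum count of 10, Benjamini-Hochberg adjustment over all genes tested, threshold 0.05): sex and genotype within each cell type, mouse and cell type in control libraries, and a genotype by cell type F test over all libraries. The design gives all 39 members by counts and ranges. It gives library values for the 3 smallest genotype p and the 3 highest levels per kb in each cell type, for called members and for the receptors and factors, and names 5 microglia genes outside the list. DESeq2 1.42.0 was an alternative, as were no filter, other scaling, pseudocounts of 0.1 and 2 in place of 0.5, Rag2+/- controls alone, the pair as a block and each library left out. The scripts were tested on simulated data. Reads on no gene were 33.5% to 52.0% of all and stayed out of library sizes. Intervals and floors cover counting error and library spread only, and amplified reads are not independent molecules.

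Same-numbered libraries came from littermates, as the labels give, and their deviations correlated with a mean r of 0.0906 in microglia, 0.141 in astrocytes, 0.102 in OPCs and 0.113 in oligodendrocytes. No libraries of a group agreed within sampling noise (smallest chi-square per gene 7.45). Upstream windows were read from GRCm39 with GENCODE M39 starts. The authors' own comparisons were not used, and values of lymphocyte markers are not reported here.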

Additional observations from a re-analysis of the deposited data

Results flagged for a closer look

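Sets of 4 to 6 libraries (a member in 1 cell type and genotype) were checked where the highest library held at least 10 counts. Of 269 such sets, 33 (12.3%) held a library far from the rest by Dixon's test at 95%. The test's rate of about 1 in 20 holds for normally distributed values. A set with few counts could also enter through the library then flagged, so the share cannot be set against that rate. Values are CPM.

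The libraries with the most such values were oligodendrocyte control 3 (5 members), OPC control 5 (4), oligodendrocyte Rag2-/- 3 (4) and microglia Rag2-/- 5 (3). In OPC control 5 the high values were 10.3 of Isg15, 12.7 of Zbp1, 37.1 of Parp14 and 24.6 of Irf9. In oligodendrocyte control 3 they were 11 of Iigp1, 7.16 of Rsad2, 2.73 of Trim30a and 4.61 of Irf9, and Gbp7 was low at 0.282; this library also had the highest microglia marker sum of its cell type (952). In oligodendrocyte Rag2-/- 3 they were 0.964 of Gbp5, 1.23 of Usp18, 1.75 of Rsad2 and 16 of Slfn2. In microglia of pair 5 the control had 12.1 of Oas2 and 15.4 of Ifi27l2a, and the Rag2-/- mouse had 5.39 of Mx1, 10.9 of Ifi27l2a and 5.80 of Rtp4.

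In the remaining microglia libraries Trim30a was low in control 4 (31.8) and Ifi204 in control 3 (11.3). In astrocytes Irgm1 was low (6.25) and Ly6e high (34.7) in control 3, Iigp1 was high in control 6 (1.47), Trim30a (7.83) and Ifnar1 (64.8) in Rag2-/- 1, and Ifi27l2a in Rag2-/- 6 (3.91). In OPCs Ifi204 was high in control 3 (2.20), Gbp2 in Rag2-/- 1 (5.10), Igtp in Rag2-/- 2 (6.83) and Slfn2 in Rag2-/- 3 (14.6). In oligodendrocytes Bst2 was high in control 5 (8.99), Ifi44 in control 6 (14.7) and Gbp3 in Rag2-/- 1 (9.44). What sets these libraries apart was not tested.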

How the results depend on the processing

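Of 254 recomputed counts and list values, 246 stayed within the limits set (1.5 times for counts, 1 SD for levels). The 8 others were the count of members called in oligodendrocytes with DESeq2 (1 between genotypes, 1 between sexes, Iigp1 each time), between sexes in astrocytes with no filter (2, Ly6e and Trim30a) and in microglia with no filter (1) or DESeq2 (1), 0 to 1 in microglia with a library left out (1, Oasl2, without control 1 or without Rag2-/- 2), and the oligodendrocyte median share of the microglia level, 13.4% with TMM scaling.

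With the littermate pair as a block, edgeR called 0 members between genotypes in each cell type and 0 between sexes, so that it changed no call. Its log2 genotype difference had the other sign for Irf9 (0.35) and Stat2 (0.14) in OPCs, Irf1 (-0.085) and Irf7 (0.32) in astrocytes and Irf1 (0.10) in microglia. The sex difference in microglia had the other sign under the block for Bst2 (-0.32), Ifi27l2a (-0.0096), Ifitm3 (-0.41), Oas1a (-0.17) and Zbp1 (-0.40). With Rag2+/- controls alone, Irf1 (0.052) and Stat2 (0.060) in microglia changed sign, and in the Rag2-/- libraries Ifit3b did between microglia and oligodendrocytes (0.80). With 1 library left out, the genotype difference ran from -0.093 to 0.44 for Stat2 in oligodendrocytes, -0.20 to 0.24 for Irf9 and -0.17 to 0.14 for Stat2 in OPCs, -0.14 to 0.12 for Ifnar1 and -0.35 to 0.23 for Irf1 in astrocytes, and -0.13 to 0.065 for Irf1, -0.23 to 0.0049 for Irf9 and -0.092 to 0.077 for Stat2 in microglia. None of these genotype values was called. The cause of these changes was not tested. Of the cell type contrasts of single members, 1418 values were unchanged in direction and call and 93 lost the call.

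Oligodendrocytes had the fewest libraries (8), and no member's genotype interval there lay within 2-fold. The cause was not tested.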
